A study of Mus musculus with 4 samples.

Results

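The heat shock proteins and J-domain chaperones are the genes whose products fold new proteins, hold unfolded ones and pass them on for repair or degradation. All rows of the gene count table whose symbol begins with Hspa, Hspb, Hspd, Hspe, Hsph, Hsp90, Dnaja, Dnajb or Dnajc, followed only by digits or lower-case letters, were taken, which gave 75 of 39017 rows with 74 symbols. The symbol Hspa14 stands on 2 rows, one of which had no counts. Of the members 64 had a mean of at least 1 CPM (counts scaled to an effective library size of 1000000) and were tested, and 11 were below that level. The rule reads symbols only, although the families were picked with earlier results of these data known.

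RNA came from 4 lung tumors of male KP mice on a C57BL/6 background, which formed 1 group of controls with 1 library per tumor. KP mice carry a Cre-activated (lox-stop-lox) K-ras allele and floxed p53 alleles (p53Fl/Fl), and lung adenocarcinomas form after Cre has been delivered. Each mouse had received 1500 viral units of a lentivirus through the trachea, with Cre driven by the PGK promoter, which is active in many cell types, and tumors were collected after 22 weeks and 5 days. They were macrodissected and dissociated to single cells, and the whole suspension was lysed, so tumor, stromal and immune cells were read together. The labels give the genotype as heterozygous fl/wt without a gene name, while the column names of the deposited log2 table mark the tumors as WT. They do not say whether the 4 tumors grew in 4 mice, so p-values and SDs measure only the spread between these samples, which are called tumors 1 to 4 by their replicate number. Total counts were between 8151613 and 8799007, at which 3 counts correspond to 0.330 to 0.370 CPM.

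Hsp70 proteins bind exposed hydrophobic stretches of their clients in a cycle driven by ATP. J-domain proteins, the DNAJA, DNAJB and DNAJC families, bring clients to Hsp70 and switch on its ATPase, and nucleotide exchange factors such as the Hsp110 proteins then reset it. Hsp90 takes over partly folded clients such as kinases and steroid receptors, small heat shock proteins hold unfolded proteins without ATP, and Hsp60 with Hsp10 folds proteins inside mitochondria. In the cytosol many of these genes are induced by Hsf1, which binds heat shock elements built of inverted GAA units. In the endoplasmic reticulum (ER) they are induced by the unfolded protein response (UPR) through ER stress elements. Alveolar type 2 cells, from which tumors of this model are thought to arise, secrete surfactant proteins through the ER.

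The promoters of the members were read to show which of them carry these elements. RefSeq promoter windows on GRCm38.p6, of 250 bases before and 50 bases after each start site, were found for 60 of 74 symbols (77 windows). Both strands were searched, and matches of the shorter heat shock motif include those of the longer. The 3-unit heat shock element GAANNTTCNNGAA was found in 6 of 77 member windows (7.79%, against 0.603% of all 32851 windows), those of Dnajb6, Hspd1, Hspe1 and Hsph1. The 2-unit form GAANNTTC was present in 20.8% of member windows and 7.86% of all, belonging to 14 members that included Hspa1a, Hspa1b, Hspb1, Hspb8 and Dnaja1. The ER stress element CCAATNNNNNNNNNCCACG was present in the windows of Dnajc3, Hsp90b1 and Hspa5 (3.9% of member windows and 0.119% of all). The second ER stress element ATTGGNCCACG was present in that of Dnajb11 (1.3% and 0.0365%). The stretches below are bases upstream of the start site, given 5′ to 3′ on the gene's strand with the matched motif in capitals. Hsf1-inducible and UPR-inducible members are read as separate lists further on, but those lists do not follow the matches. Of the Hsf1 list, Hspa8, Hspa4l, Hsp90aa1, Hsp90ab1, Dnajb1 and Dnajb4 had no match or no window. The same held for Hspa13, Dnajb9 and Dnajc10 of the UPR list, while Dnajb6 has a match and is not on the Hsf1 list.
Hspe1, 2 overlapping 3-unit elements, chr1:55088039-55088101, plus strand: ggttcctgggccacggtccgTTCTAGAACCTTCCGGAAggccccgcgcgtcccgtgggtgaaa
Dnajb6, 3-unit element, chr5:29735827-29735889, plus strand: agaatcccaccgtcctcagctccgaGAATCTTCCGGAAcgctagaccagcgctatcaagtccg
Hspa1b, 2-unit element, chr17:34959310-34959367, minus strand: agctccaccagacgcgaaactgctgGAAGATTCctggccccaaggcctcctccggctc
Hspb1, 2 separate 2-unit elements, chr5:135887797-135887854, plus strand: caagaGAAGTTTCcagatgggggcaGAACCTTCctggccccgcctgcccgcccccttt
Dnaja1, 2-unit element, chr4:40722319-40722376, plus strand: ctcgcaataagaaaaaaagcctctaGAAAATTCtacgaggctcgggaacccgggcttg
Hspa5, ER stress element, chr2:34772000-34772068, plus strand: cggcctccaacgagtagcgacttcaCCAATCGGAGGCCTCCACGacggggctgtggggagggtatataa
Hsp90b1, ER stress element in reverse, chr10:86705508-86705576, minus strand: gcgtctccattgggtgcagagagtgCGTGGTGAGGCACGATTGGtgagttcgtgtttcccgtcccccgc
Dnajc3, ER stress element, chr14:118937802-118937870, plus strand: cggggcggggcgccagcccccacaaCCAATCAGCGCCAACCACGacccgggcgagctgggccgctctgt
The stretch of Hspa1b is the same in Hspa1a (chr17:34972228-34972285), and the 250 bases before the start sites of these genes differ at 3 bases. Hspe1 and Hspd1 are transcribed away from each other and share 285 bases of their windows, so both count the same elements. A match describes the letters in a window and does not show that a factor binds there.

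The members together took 1.24% ± 0.093 (SD, n = 4) of the reads counted on genes. They held 1.37% in tumor 1 (95% Wilson interval 1.36 to 1.38%), 1.25% in tumor 2 (1.24 to 1.25%), 1.16% in tumor 3 (1.15 to 1.16%) and 1.19% in tumor 4 (1.18 to 1.20%). The share was largest in tumor 1, and the intervals, which cover counting error only, did not overlap between any 2 tumors. The 5 members with the most counts, Hspa8, Hsp90ab1, Hsp90b1, Hspa5 and Hsp90aa1, held 65.3% of the summed mean CPM of the members.

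Between genes, levels were compared as CPM per kb of the longest annotated transcript. On this scale the cytosolic Hsp90 gene Hsp90ab1 was the most abundant member with 895 ± 184 CPM per kb (SD, n = 4). The constitutive Hsp70 gene Hspa8 was next with 813 ± 49.9, and these neighbors overlapped between tumors. In CPM without length Hspa8 was above Hsp90ab1, with means of 2566 and 2254. The ER Hsp90 gene Hsp90b1 followed with 425 ± 79.7 CPM per kb, then Hsp90aa1 with 273 ± 95.3 and the ER Hsp70 gene Hspa5 with 272 ± 33.3, and the last 2 of these differed by less than their spread. The mitochondrial genes Hspa9 (177 ± 13.99 CPM per kb) and Hspd1 (167 ± 12.7) came next and overlapped as well. The leading J proteins were Dnaja2 (83.7 ± 9.51 CPM per kb), Dnajc8 (64.5 ± 9.83) and Dnajc7 (60.6 ± 5.52), followed by Hspa4 (58.2 ± 10.7) and Hspe1 (55.5 ± 5.97). Per kb of the longest transcript, every J protein gene was thus below the cytosolic, ER and mitochondrial Hsp70 genes Hspa8, Hspa5 and Hspa9. This order depends on the length used, since Dnajc5 has 594 coding nt in a transcript of 6578 nt and Hspa9 has 2037 in 3049 nt.

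**Figure D1:**
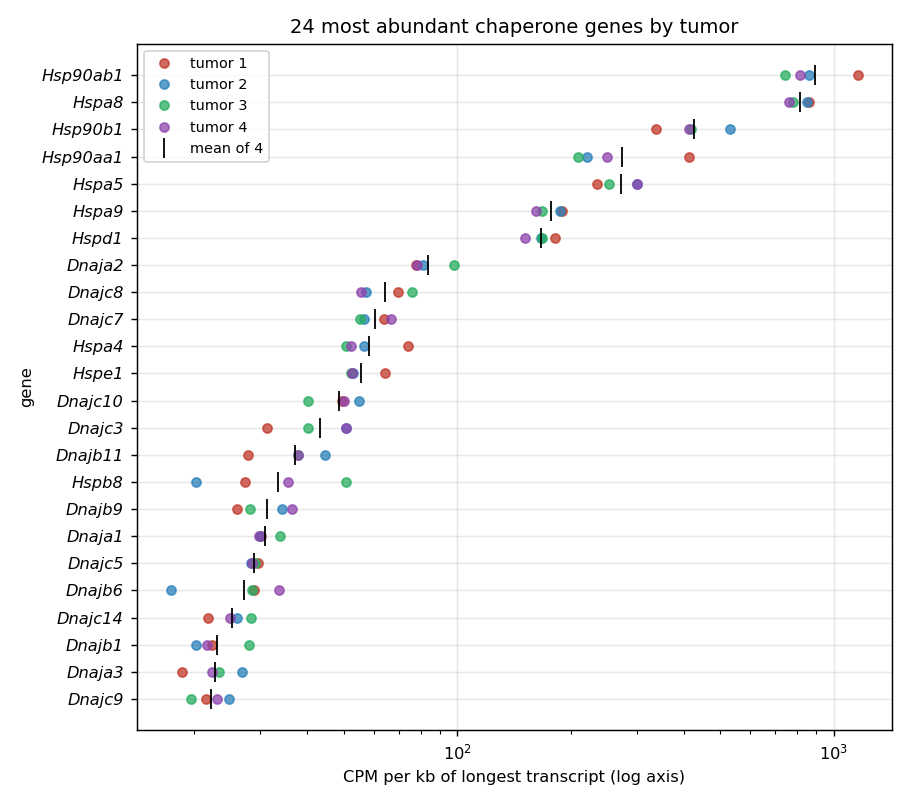
Level of the 24 most abundant chaperone genes in 4 KP control tumors, in CPM per kb of the longest transcript on a log axis; each point is 1 tumor and the bar is the mean of 4. Hsp90ab1 and Hspa8 lead with 895 and 813 CPM per kb, and tumor 1 is the highest point of Hsp90ab1 and Hsp90aa1 and the lowest of Hsp90b1 and Hspa5.

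Counts varied between tumors beyond counting noise for 48 of 64 tested members (chi-square test against Poisson expectations, adjusted p below 0.05), a share of 75% against 76.7% of all 14225 genes tested. The count was 38 without tumor 1, when 12 members lost the call (Dnajb5, Dnajc16, Dnajc17, Dnajc27, Dnajc28, Hspa13, Hspa1a, Hspb1, Hspb6, Hspbap1, Hspbp1 and Hspe1). Without tumor 3 it was lost by 8 members (Dnaja1, Dnaja2, Dnajb1, Dnajc9, Dnajc27, Hspa12a, Hspa1a and Hsph1), without tumor 2 by 3 (Dnajc9, Dnajc17 and Hspb6) and without tumor 4 by 0. Calls over all genes fell as well, from 10905 of 14225 to 8838 of 14181 without tumor 1 and 8807 of 14120 without tumor 3. They were 10140 of 14239 without tumor 2 and 10244 of 14256 without tumor 4. Beyond the spread of a typical gene of the same abundance (edgeR dispersion trend), only 1 of 64 members passed, Dnajc22, against 3.04% of all genes. No other member came below an unadjusted p of 0.05, which 7.47% of all genes did, and the next lowest adjusted p in the edgeR fit was 0.690 for Hspb8. The median SD of log2 CPM over the 4 tumors was 0.22 for the tested members and 0.29 for all tested genes. The members were also more abundant, with a median of 45.5 against 27.4 CPM, and at a mean of at least 10 CPM the medians of the SD were 0.21 (52 members) and 0.25 (10269 genes). At that level 7 of 52 members (13.5%) differed more than 2-fold between the highest and the lowest tumor, as did 17.2% of all genes.

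**Figure D2:**
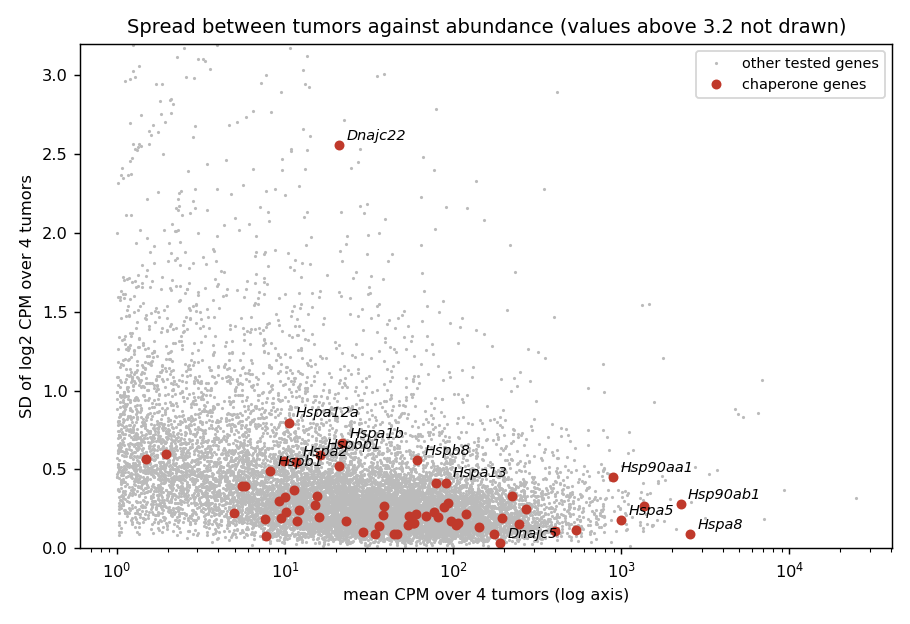
SD of log2 CPM over 4 tumors (vertical axis) against mean CPM (horizontal log axis) for 14225 tested genes, with the 64 tested chaperone genes in red. Dnajc22 stands alone among them with an SD of 2.56, while Dnajc5 lies at 0.029 and Hspa8 at 0.089.

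Of the tested members 17 were highest in tumor 1 (26.6%, against 31.4% of all genes), 11 in tumor 2 (17.2% against 20.4%), 24 in tumor 3 (37.5% against 30.1%) and 12 in tumor 4 (18.8% against 18.0%). The role groups did not follow 1 order. All 3 cytosolic DNAJA genes and 5 of 8 tested DNAJB genes were highest in tumor 3, both cytosolic Hsp90 genes were highest in tumor 1, and 0 of 10 ER Hsp70 and ER J protein genes were highest in tumor 1. Samples are bulk suspensions, in which fewer cells of a type and less RNA per cell cannot be told apart.

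**Figure D3:**
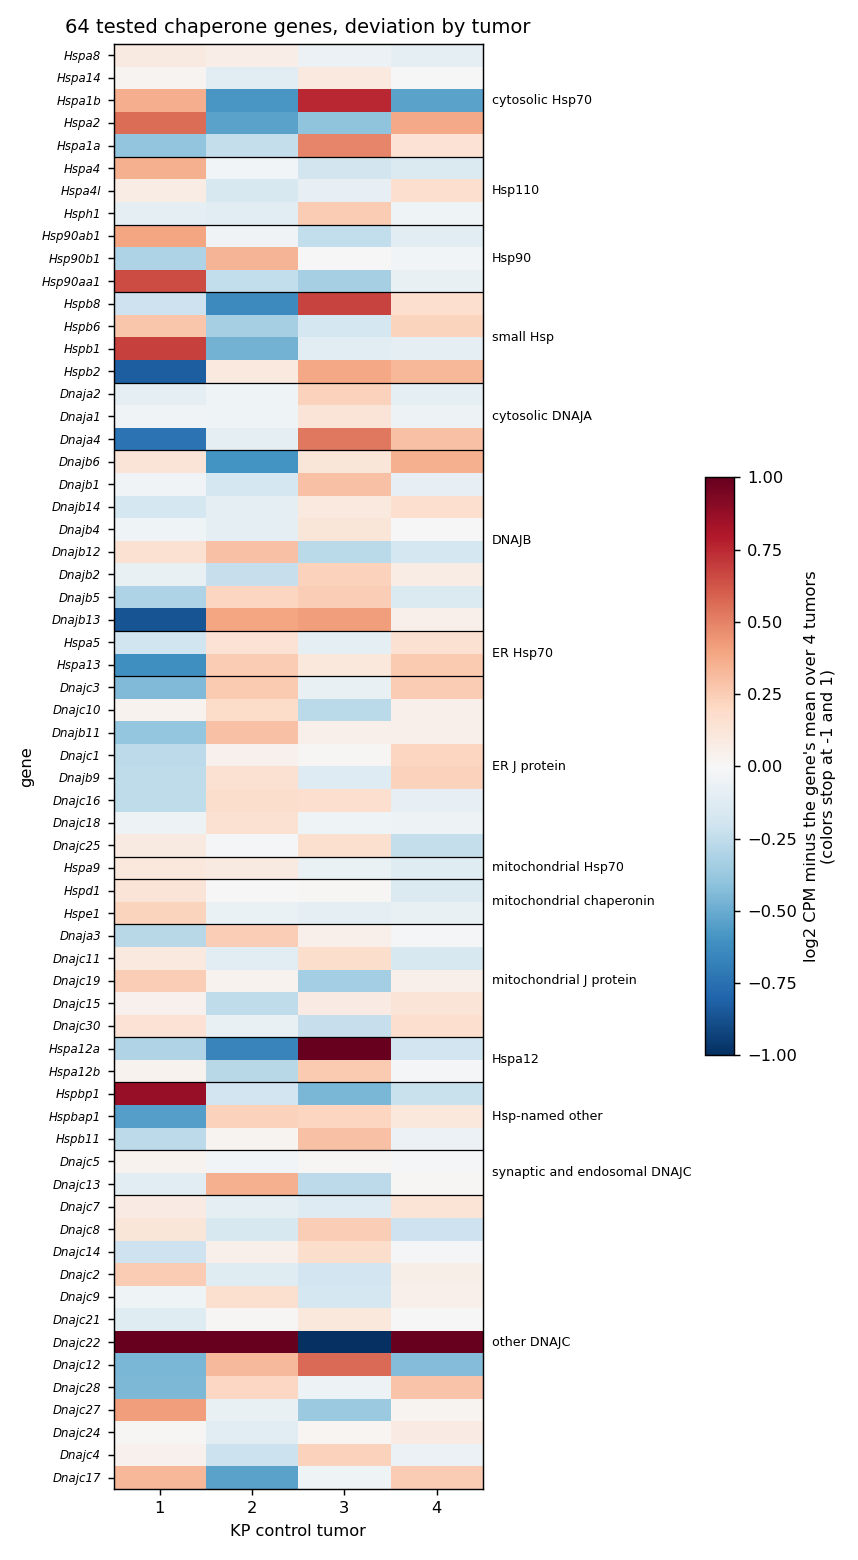
Log2 CPM of the 64 tested chaperone genes in each of 4 tumors (columns) minus the gene's mean over the 4 tumors, with genes grouped by role and ordered by abundance; red is above and blue below the mean, and colors stop at -1 and 1. The ER groups are mostly blue in tumor 1, the DNAJA group is red in tumor 3, and Dnajc22 is off the scale in tumor 3.

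Among the cytosolic Hsp70 genes, the constitutive chaperone Hspa8 was the most abundant and, with Hspa14, the steadiest, and the heat-inducible pair Hspa1a and Hspa1b was low and variable. Hspa8 had 2720.4, 2680.5, 2458 and 2405 CPM in tumors 1 to 4 (SD of log2 CPM 0.089). Hspa1b had 25.9, 13.4, 33.9 and 13.8 CPM (SD 0.67) and its neighbor Hspa1a 4.07, 4.53, 7.53 and 5.95 CPM (SD 0.40). Hspa1a no longer varied beyond counting noise without tumor 1 or without tumor 3. Tumor 3 was highest for both inducible genes, but tumor 1 was second for Hspa1b and lowest for Hspa1a. The testis-enriched Hsp70 gene Hspa2 followed another order, with 16.2, 7.55, 8.27 and 14.3 CPM, high in tumors 1 and 4 and low in tumors 2 and 3 (SD 0.55). Hspa14, a ribosome-associated Hsp70 relative, was steady at 45.3, 41.1, 47.8 and 44.4 CPM (SD 0.090, and 0.055 without tumor 2). Hspa1l, a germ cell relative in the same cluster as Hspa1a, had only 1 or 2 counts in each tumor.

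Hspa1b lies at chr17:34956436-34959238 and Hspa1a at chr17:34969190-34972156 (GRCm38, both minus strand), and 78.5% and 75.7% of their longest transcripts are near-identical to another gene. Reads on these stretches cannot be given to 1 copy, so the split between both genes is uncertain, as is the count of Hspa8, of which 73.1% is near-identical to other genes including 7 pseudogenes. With the values as counted, log2 CPM per kb of Hspa8 minus Hspa1a was 9.27, 9.10, 8.25 and 8.56 (mean 8.795 ± 0.48, SD, n = 4), and that of Hspa1a minus Hspa1b was -2.73, -1.63, -2.25 and -1.29 (mean -1.97 ± 0.64). Hspa8 was the higher gene in 4 of 4 tumors and Hspa1b was above Hspa1a in 4 of 4. For each of 8 pairs of related chaperones, the exact two-sided sign-flip permutation test gave p 0.125 (adjusted over the 8 pairs 0.125), the smallest that 4 tumors allow, so no pair could pass 0.05.

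The Hsp110 genes encode exchange factors of Hsp70. Hspa4 had 341, 260.4, 233 and 241 CPM and was highest in tumor 1 (SD 0.25, and 0.080 without tumor 1). The heat-inducible Hsph1 had 89.9, 88.98, 115 and 93.5 CPM and was highest in tumor 3 (SD 0.17, and 0.038 without tumor 3, when it no longer varied beyond counting noise). Hspa4l had 108, 92.00, 96.9 and 115 CPM with tumors 4 and 1 above the others (SD 0.15). Thus the 3 genes were highest in 3 different tumors. Hspa4 was above Hsph1 in 4 of 4 tumors, by 1.51 ± 0.37 on the log2 CPM per kb scale (SD, n = 4).

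The cytosolic Hsp90 genes were highest in tumor 1 and the ER Hsp90 gene was lowest there. Hsp90aa1, the more inducible cytosolic form, had 1358, 725, 685 and 820.3 CPM (SD 0.45), and Hsp90ab1, the constitutive form, 2926, 2165, 1875 and 2051 CPM (SD 0.28). Tumor 1 lay above the 3 others for both genes. Without tumor 1 their SDs were 0.13 and 0.10, so 1 tumor carries most of this spread, although both genes still varied beyond counting noise. Hsp90b1, which encodes Grp94, had 1089, 1712, 1346 and 1329.6 CPM, highest in tumor 2 and lowest in tumor 1 (SD 0.27, and 0.17 without tumor 2). Hsp90ab1 was above Hsp90aa1 in 4 of 4 tumors, by 1.49, 1.96, 1.83 and 1.70 on the log2 CPM per kb scale, with the smallest difference in tumor 1. Near-identical stretches of 3 pseudogenes cover 68.7% of the Hsp90aa1 transcript, so its count is uncertain, and none was found for Hsp90ab1.

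All 3 cytosolic DNAJA genes, the closest partners of Hspa8, were highest in tumor 3. Dnaja2 had 228, 236, 286 and 228 CPM and Dnaja1 169, 169, 190.3 and 167 CPM, so tumors 1, 2 and 4 lay together and tumor 3 stood apart above them. A single tumor stood apart in this sense, with a gap above Dixon's limit, for 6 of 64 members (9.38%, against 5.86% of all genes). The SDs of Dnaja2 and Dnaja1 were 0.16 and 0.089, and without tumor 3 they were 0.030 and 0.009 and neither gene varied beyond counting noise. Dnaja4 was lower and more variable, with 5.61, 8.83, 13.6 and 11.54 CPM, lowest in tumor 1 (SD 0.55). Near-identical stretches cover 52.6% of its transcript and 32.1% of that of Dnaja1.

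The DNAJB genes include the heat-inducible Dnajb1 and Dnajb4 and several J proteins that keep aggregation-prone clients soluble. Dnajb1, the Hsp40 that works with Hspa1a, had 66.7, 60.5, 84.04 and 64.7 CPM and was highest in tumor 3 (SD 0.21, and 0.071 without tumor 3, when it was within counting noise). Dnajb4 did not vary beyond counting noise, with 45.1, 43.7, 50.3 and 46.6 CPM (SD 0.088, and 0.047 without tumor 3). Dnajb6, which suppresses aggregation of polyglutamine proteins and whose promoter element is printed above, had 83.96, 50.6, 83.4 and 98.1 CPM. It was low in tumor 2 and closer together in the other tumors (SD 0.41, and 0.13 without tumor 2), and near-identical stretches cover 47.3% of its transcript. Dnaja1 was above Dnajb1 in 4 of 4 tumors by 0.43 ± 0.12 on the log2 CPM per kb scale (SD, n = 4), a size that depends on the length used, since it was 1.12 per kb of coding sequence and 1.34 with no length correction.

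The ER-membrane J proteins Dnajb12 and Dnajb14 had means of 38.5 ± 7.12 and 57.8 ± 6.36 CPM, and Dnajb2 and Dnajb5 had 15.96 ± 2.21 and 15.1 ± 2.81 CPM (SD, n = 4). Dnajb12 was highest in tumor 2 and Dnajb14 in tumor 4. Dnajb13, a J protein of cilia and sperm, had 9 to 21 counts and overlaps Ucp2, whose mean was 275 CPM. The strand setting of the counting is not given, so the counts of 9 tested members that overlap a more abundant gene are uncertain (Dnaja4, Dnajb13, Dnajc1, Dnajc17, Dnajc19, Dnajc30, Hspb2, Hspb6 and Hspe1). Dnajb3, which lies inside the Ugt1a locus, had 3 to 17 counts, and Dnajb7 had 0 to 7. Dnajb8, a testis gene, had 0 counts in every tumor, which allows up to 3 counts, or 0.330 to 0.370 CPM.

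Of the small heat shock proteins, Hspb8 was the most abundant and the only one with a mean above 10 CPM. Hspb8, which works with the co-chaperone Bag3 in selective autophagy, had 49.7, 36.8, 91.8 and 64.6 CPM, highest in tumor 3 and lowest in tumor 2 (SD 0.56). Hspb1, the Hsp27 gene, had 12.5, 5.58, 7.16 and 7.26 CPM and was highest in tumor 1 (SD 0.49, and 0.21 without tumor 1, when it was within counting noise). These genes therefore peaked in different tumors. Near-identical stretches cover 72.6% of the Hspb1 transcript. Hspb6 had 11.003, 7.20, 8.02 and 10.6 CPM and Hspb2, which overlaps the crystallin gene Cryab, 7 to 15 counts. The muscle gene Hspb7 had 0 to 4 counts, and Hspb3 and Hspb9 had 1 count each over the 4 tumors. Cryab, itself a small heat shock protein, had 18.8, 26.7, 51.2 and 30.6 CPM and was highest in tumor 3, as Hspb8 was.

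Hspa12a, a distant Hsp70 relative, was highest in tumor 3, with 7.48, 5.81, 20.6 and 8.09 CPM (SD 0.80). Without tumor 3 its SD was 0.25 and it no longer varied beyond counting noise. Its relative Hspa12b, known from endothelial cells, had 5.06, 4.07, 5.92 and 4.88 CPM and did not vary beyond counting noise. Hspa12a, Hspb8, Hspa1a and Hspa1b were among the 24 members highest in tumor 3, as were 30.1% of all genes tested. In that tumor 5 of 5 leukocyte markers were also highest, with a summed level of 114, 136, 269 and 156 CPM in tumors 1 to 4. So were 5 of 5 red blood cell markers (summed 39.8, 32.3, 109.8 and 45.1 CPM) and 3 of 3 T cell markers above 1 CPM (the 7 markers on the list summed to 3.19, 4.99, 21.6 and 4.04 CPM, with Cd4 at 0 in tumor 4). Of 6 fibroblast markers 2 were highest in tumor 3 and 4 in tumor 1, and of 5 muscle markers above 1 CPM 3 were highest in tumor 3. Of 6 endothelial markers 3 were highest in tumor 3 and 2 in tumor 1 (summed 258, 248, 298 and 231 CPM). The part of these cells in the chaperone values was not tested.

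Of 3 genes that carry an Hsp name but are no chaperones of these families, Hspbp1, which encodes an exchange factor of Hsp70, varied most, with 27.4, 13.1, 10.9 and 12.8 CPM. Tumor 1 was more than 2-fold above each other tumor, and the SD of 0.59 was 0.15 without it, when the gene was within counting noise. Hspbap1 took the opposite position, with 7.48, 12.9, 12.7 and 11.8 CPM and tumor 1 apart below the others (SD 0.37, and 0.071 without tumor 1, when it was within counting noise). Hspb11, an intraflagellar transport subunit, had 8.36, 10.2, 12.3 and 9.63 CPM and was within counting noise.

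Of the 10 genes grouped here as ER Hsp70 and ER J proteins, 8 were lowest in tumor 1, as were 30.3% of all genes tested. This count was made after the values were seen. The ER-membrane proteins Dnajb12 and Dnajb14 are described with the DNAJB genes above, and with them the count was 9 of 12, since Dnajb14 was lowest in tumor 1 and Dnajb12 in tumor 3. Hspa5, which encodes BiP, had 863, 1099.7, 928 and 1104 CPM (SD 0.18), and Hspa13, a microsomal Hsp70 relative, 57.1, 104, 94.2 and 105 CPM (SD 0.42, and 0.085 without tumor 1, when it was within counting noise). In both genes tumors 2 and 4 were close to each other and tumor 1 was lowest. Dnajc3, the J protein p58IPK, had 161, 261, 207 and 260.5 CPM (SD 0.33, and 0.19 without tumor 1). Dnajb11, a lumenal partner of BiP, had 69.98, 112, 94.8 and 95.1 CPM (SD 0.28, and 0.14 without tumor 1), and Dnajb9, which restrains Ire1, 63.8, 84.3, 69.5 and 89.3 CPM (SD 0.23). Tumor 1 was lowest for each of these 3 genes, and the highest tumor was 2 for Dnajc3 and Dnajb11 and 4 for Dnajb9.

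The other exceptions were Dnajc10, a disulfide reductase of ER-associated degradation, with 199, 222, 162 and 202 CPM and its lowest value in tumor 3 (SD 0.19, and 0.084 without tumor 3), and Dnajc25, with 24.2, 22.5, 25.4 and 19.3 CPM. Among the other ER J proteins Dnajc1 had 81.3 ± 10.9 CPM and Dnajc16 38.2 ± 5.38 CPM (SD, n = 4), and both were lowest in tumor 1. Scaled by library size only or by DESeq2 size factors, 7 of 10 ER genes were lowest in tumor 1 in place of 8 (8 of 12 in place of 9), since tumors 1 and 4 were nearly equal for Dnajc18. This gene had 28.1, 32.3, 28.3 and 28.1 CPM, with tumor 2 apart above the others but within counting noise (SD 0.10, and 0.006 without tumor 2). Hsp90b1 was above Hspa5 in 4 of 4 tumors by 0.63 ± 0.17 on the log2 CPM per kb scale (SD, n = 4), which fell to 0.15 per kb of coding sequence. Hspa8 was above Hspa5 in 4 of 4 tumors by 1.59 ± 0.22 on the same transcript scale, most in tumor 1.

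In tumor 1, where most of these ER genes were lowest, 6 of 8 alveolar type 2 markers were lowest too (30.3% of all genes were). Their summed level was 32859.8, 56505, 53158 and 60875 CPM in tumors 1 to 4, and Lamp3 had 420.3, 2263, 2515 and 1867 CPM and Slc34a2 1847, 5452, 6686 and 5787 CPM. Of 4 general epithelial markers 3 were highest in tumor 1 (31.4% of all genes were), with 1261, 589, 676 and 632 CPM of Krt8. The lowest value of any of the 8 alveolar markers was 298 CPM (Napsa in tumor 1), so the labelled lung tumor tissue carried its defining markers. The part of alveolar type 2 cells in the lower ER chaperone values of tumor 1 was not tested.

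The mitochondrial chaperones were among the steadier members. Hspa9, the mitochondrial Hsp70 or mortalin, had 580.4, 572, 513 and 494 CPM (SD 0.11), and Hspd1, which encodes Hsp60, 442, 405, 407 and 367 CPM (SD 0.11, and 0.065 without tumor 4). Its partner Hspe1, which encodes Hsp10, had 62.2, 50.99, 50.2 and 50.8 CPM, with tumor 1 apart above the others (SD 0.15, and 0.010 without tumor 1, when it was within counting noise). All 3 genes were highest in tumor 1, by at most 1.24-fold over the lowest tumor.

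Hspd1 (chr1:55077835-55088243, minus strand) and Hspe1 (chr1:55088132-55091307, plus strand) overlap head to head at their starts, and the Hspe1 stretch printed above lies just upstream of this overlap, within the annotated Hspd1 gene. Hspe1 minus Hspd1 was -1.50, -1.66, -1.69 and -1.52 on the log2 CPM per kb scale (mean -1.59 ± 0.10, SD, n = 4), below 0 in 4 of 4 tumors. Its size depends on the length used, since it was -0.43 per kb of coding sequence and -2.92 in CPM without length. The spread of this difference was 0.097, the smallest of the 8 pairs. Near-identical stretches of 3 pseudogenes cover 71.1% of the Hspd1 transcript.

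The mitochondrial J proteins had lower levels. Dnaja3, the partner of mortalin, had 49.2, 70.97, 61.7 and 58.99 CPM, highest in tumor 2 (SD 0.22), and Dnajc11, a protein of the cristae junction complex, 62.4, 54.01, 66.02 and 52.3 CPM. Both varied beyond counting noise, while Dnajc19 and Dnajc15, J proteins of the import motor, and Dnajc30 did not, with means of 12.2 ± 1.98, 11.8 ± 1.33 and 9.50 ± 1.24 CPM (SD, n = 4).

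Dnajc5, the cysteine string protein of secretory vesicles, was the steadiest of all 64 tested members, with 195, 186, 191 and 187 CPM (SD 0.029). The endosomal J protein Dnajc13 had 81.3, 112, 72.8 and 88.01 CPM and was highest in tumor 2 (SD 0.26). The neuronal auxilin gene Dnajc6 had 2 to 7 counts, Dnajc5b had 0 or 1, and Dnajc5g had 0 in every tumor, with the same upper limit as Dnajb8.

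Dnajc22 differed most between tumors of all members tested. It encodes a J protein with several membrane-spanning segments whose fly homolog, Wurst, acts in endocytosis in the airways, and it lies at chr15:99093170-99104737 (plus strand). Its CPM was 31.9, 26.7, 0.740 and 24.6 in tumors 1 to 4, from 290, 230, 6 and 207 counts. Tumors 1, 2 and 4 lay close together and tumor 3 was 43.1-fold below the highest. The SD of log2 CPM was 2.56, rank 34 of 10269 genes at a mean of at least 10 CPM, and the adjusted p for spread beyond a typical gene was 3.16e-07 (edgeR, Benjamini-Hochberg over 14225 genes). Without tumor 3 the SD was 0.19 and 0 tested members passed that test (edgeR, 0 also at an unadjusted p below 0.05). No annotated gene overlaps Dnajc22 and no near-identical stretch was found.

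None of the genes next to Dnajc22 fell as far in tumor 3, although Spats2 and Mcrs1 were lowest there too. Within 200 kb on either side, 7 other genes had a mean of at least 1 CPM, a window chosen after the value of Dnajc22 was seen. Of these Troap, the nearest upstream, had 5.94, 5.81, 4.81 and 4.52 CPM and Spats2, the nearest downstream, 49.6, 59.2, 29.9 and 46.03 CPM. In tumor 3 the 7 genes stood at 0.578 (Spats2) to 1.96 (Tuba1a) times their mean in the other tumors, and Dnajc22 at 0.027 times. In tumor 3 the pan-epithelial marker Cdh1 had 846 CPM and the alveolar marker Sftpc 24926 CPM, both within the range of the other tumors. The epithelial marker Epcam was lowest in tumor 3, with 600.3, 470.4, 218 and 371 CPM. Of 8 alveolar type 2 markers 2 were lowest in tumor 3 and 3 were highest there. The 2 lowest were Sftpb (8261, 11840, 6601 and 10400 CPM) and Abca3 (876, 1134, 759 and 1066 CPM). The part of epithelial cells in the Dnajc22 value of tumor 3 was not tested.

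**Figure D4:**
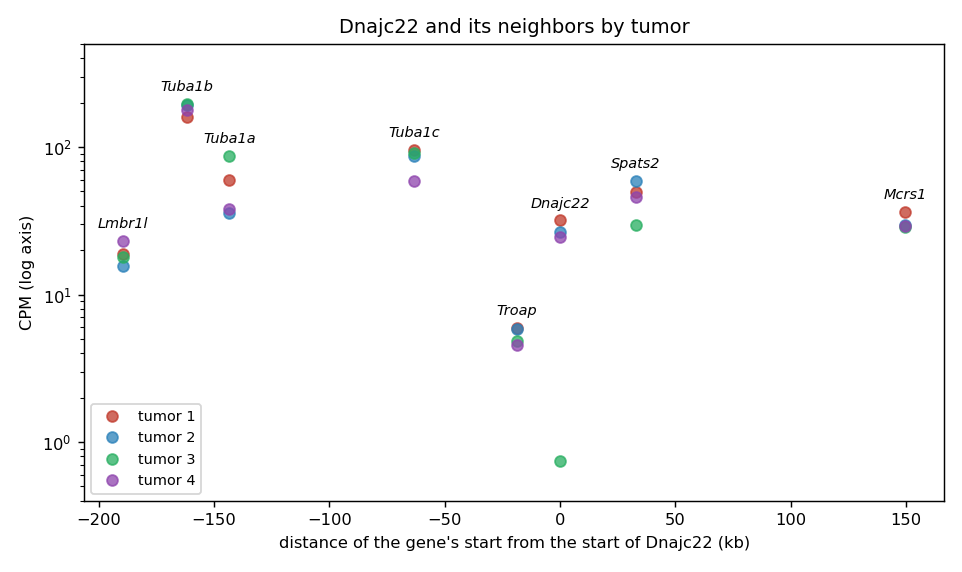
CPM (log axis) of Dnajc22 and 7 neighboring genes in 4 tumors against the distance of each gene's start from that of Dnajc22 in kb. Tumor 3 lies far below the other tumors at Dnajc22 (0.740 CPM) and at none of its neighbors.

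The remaining DNAJC genes had smaller SDs than Dnajc22. Dnajc7, which binds both Hsp70 and Hsp90, had 149, 132, 129 and 155 CPM (SD 0.13), and the splicing-associated Dnajc8 128, 105, 139 and 102 CPM (SD 0.22). Dnajc12, a cochaperone of aromatic amino acid hydroxylases, varied more, with 14.5, 24.97, 29.5 and 14.7 CPM, so that tumors 2 and 3 were above tumors 1 and 4 (SD 0.52). Means were 107 ± 11.6 CPM for Dnajc14, 54.8 ± 7.85 for the ribosome-associated Dnajc2, 36.2 ± 3.59 for the histone chaperone Dnajc9 and 34.04 ± 2.16 for Dnajc21 (SD, n = 4). They were 15.5 ± 3.34 CPM for Dnajc28, 9.98 ± 2.32 for Dnajc27, 7.66 ± 0.419 for Dnajc24, which acts in diphthamide synthesis, 7.61 ± 1.00 for Dnajc4 and 5.74 ± 1.45 for Dnajc17. Of these 9 genes Dnajc4, Dnajc21 and Dnajc24 did not vary beyond counting noise, and 93.5% of the Dnajc17 transcript is near-identical to other genes.

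Members were also read as 2 crossing lists by the pathway that induces them. The 14 Hsf1-inducible members (Hspa1a, Hspa1b, Hspa8, Hsph1, Hspa4l, Hsp90aa1, Hsp90ab1, Hspd1, Hspe1, Hspb1, Hspb8, Dnaja1, Dnajb1 and Dnajb4) had a mean log2 CPM of 6.88, 6.55, 6.88 and 6.69 in tumors 1 to 4 (SD 0.16). The 7 UPR-inducible members (Hspa5, Hspa13, Hsp90b1, Dnajb9, Dnajb11, Dnajc3 and Dnajc10) had 7.54, 8.08, 7.79 and 7.99 (SD 0.24, and 0.15 without tumor 1). By mean log2 CPM the Hsf1 list was thus highest in tumors 1 and 3 and lowest in tumor 2, and the UPR list was highest in tumor 2 and lowest in tumor 1. Summed CPM gave the Hsf1 list another order, with 8081, 6541, 6152 and 6273 CPM and its lowest value in tumor 3. To this sum Hsp90ab1 and Hspa8 add most, which are called constitutive forms above. The summed CPM of the UPR list was 2503, 3595, 2901 and 3185, in the same order as its mean. Of the 14 Hsf1-inducible members 6 were highest in tumor 1 (31.4% of all genes tested were), 7 in tumor 3 (30.1%) and 0 in tumor 2 (20.4%). Those of tumor 1 were Hsp90aa1, Hsp90ab1, Hspa8, Hspb1, Hspd1 and Hspe1. Those of tumor 3 were Hspa1a, Hspa1b, Hsph1, Hspb8, Dnaja1, Dnajb1 and Dnajb4. Of the UPR-inducible members 6 of 7 were lowest in tumor 1, all but Dnajc10, against 30.3% of all genes tested. Apart from Hsp90b1, these 7 members are among the 10 ER genes counted above. Counts beyond noise were 13 of 14 and 7 of 7, against 76.7% of all genes, and the median SD was 0.19 and 0.27, against 0.29 for all tested genes.

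**Figure D5:**
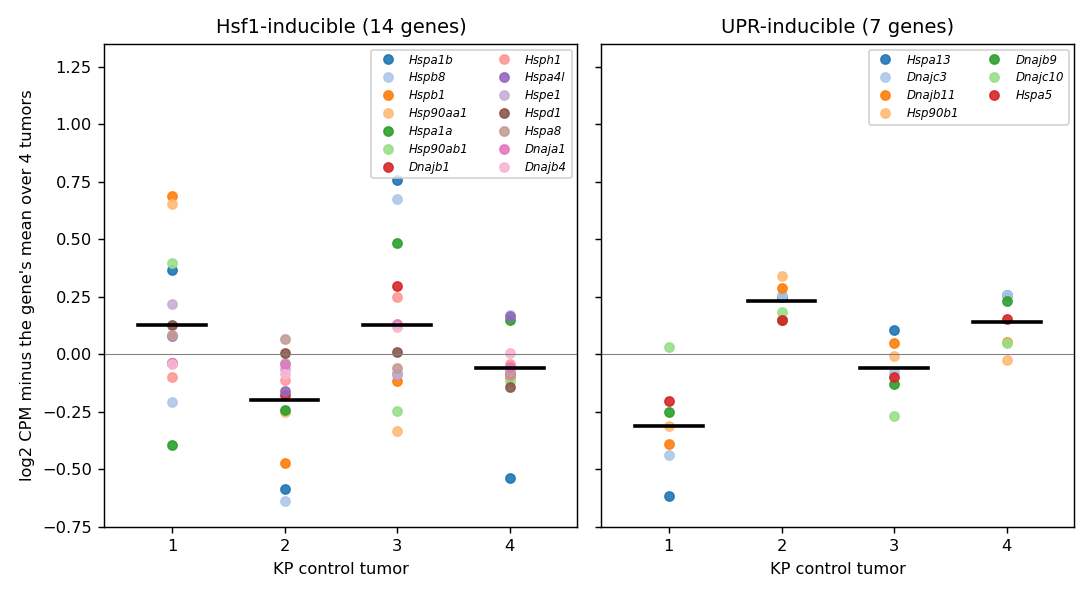
Log2 CPM minus the gene's mean over 4 tumors for 14 Hsf1-inducible (left) and 7 UPR-inducible (right) chaperone genes; points are genes and black bars the mean of the list in each tumor. The left bars are lowest in tumor 2, and the right bars are lowest in tumor 1 and highest in tumor 2.

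Dissociation of tissue is known to induce immediate early and heat shock genes. The 14 genes of a dissociation and early response list had a mean log2 CPM of 4.62, 4.09, 4.29 and 4.53, with 9 of 14 highest in tumor 1 (31.4% of all genes were) and 8 of 14 lowest in tumor 2 (19.4% of all genes), and Atf3 had 12.7, 4.18, 9.87 and 10.2 CPM. In mean log2 CPM tumor 2 was thus the lowest for this list and for the Hsf1-inducible members, of which 7 of 14 were lowest there. The part of dissociation in the Hsf1-inducible values was not tested.

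Partners and neighboring pathways of the chaperones were read from 7 lists with 89 genes outside the families, of which 85 were tested. Beyond counting noise 76 of 85 varied (89.4%, against 76.7% of all genes), and 0 of 85 beyond the typical gene (edgeR, against 3.04% of all genes). At an unadjusted p below 0.05 the count was also 0 (7.47% of all genes), as it was with a common dispersion (4.04% of all genes). Their median SD of log2 CPM was 0.23, against 0.29 for all tested genes. A call beyond counting noise also depends on abundance, so the larger share does not show a larger spread. Among the heat shock factors 3 of 4 tested genes varied beyond noise, Hsf1 was steady at 37.3, 32.99, 34.7 and 35.6 CPM (SD 0.074), and Hsf4 had 5.39, 7.67, 16.8 and 11.7 CPM, highest in tumor 3 (SD 0.71). The Hsf1 binding protein gene Hsbp1 had 104, 123, 135 and 107 CPM (SD 0.18).

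Of 10 nucleotide exchange and Bag genes 8 varied beyond noise (76.7% of all genes did). The largest SDs were those of the proteasome-linked Bag6 (184, 122, 85.1 and 123 CPM, SD 0.45) and the ER exchange factor Hyou1 (136, 222, 108 and 158 CPM, SD 0.44). Bag6 was highest in tumor 1 and Hyou1 in tumor 2. Bag3, the partner of Hspb8, was steady at 37.1, 39.4, 35.7 and 39.6 CPM (SD 0.072) and did not share the high value of Hspb8 in tumor 3. Of 18 cochaperones of Hsp70 and Hsp90 17 varied beyond noise (76.7% of all genes did) and 9 were highest in tumor 1 (31.4% of all genes were). Their largest SDs were those of the glucocorticoid-induced Fkbp5 (33.01, 14.2, 23.2 and 22.5 CPM, SD 0.50) and Cdc37l1 (35.8, 46.8, 69.7 and 47.3 CPM, SD 0.40). The Hsp90 activator Ahsa1 had 156, 114, 113 and 105 CPM, with the same tumor highest as for Hsp90aa1 and Hsp90ab1.

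Of 14 tested genes of the TRiC chaperonin and prefoldin 11 varied beyond noise (76.7% of all genes did). In tumor 1 8 were highest (31.4% of all genes were), and the median SD was 0.17. The largest SDs were those of Pfdn6 (42.8, 25.2, 23.6 and 20.7 CPM, SD 0.46) and Cct3 (449, 294, 253 and 331 CPM, SD 0.35). Of 7 other heat shock chaperones 7 varied beyond noise (76.7% of all genes did). They were led by Cryab (SD 0.60) and the mitochondrial protease Lonp1 (133, 72.3, 58.5 and 79.1 CPM, SD 0.50), which was highest in tumor 1. Among 18 further genes of the UPR 17 varied beyond noise (76.7% of all genes did). Of these 18 genes 12 were highest in tumor 2 (20.4% of all genes were), and 7 each were lowest in tumors 1 (30.3% of all genes) and 3 (32.6%). The largest SDs were those of the degradation adaptor Sel1l (256, 513, 365 and 291 CPM, SD 0.44) and the stress transcription factor Ddit3 (8.69, 7.55, 11.4 and 12.5 CPM, SD 0.33). Xbp1, the UPR transcription factor, had 182, 276, 266 and 257 CPM, with tumor 1 below the 3 others as for Hspa13 and Dnajc3. In the dissociation list 13 of 14 varied beyond noise (76.7% of all genes did). At a mean of at least 10 CPM its largest SDs were those of Ier2 (26.96, 18.00, 10.9 and 17.2 CPM, SD 0.53) and Dusp1 (29.5, 26.1, 44.1 and 57.7 CPM, SD 0.53).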

How the data were processed

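RNA of 4 KP control tumors was sequenced from stranded libraries of polyadenylated RNA (500 ng of total RNA each). Per the submitters' processing notes, bcl2fastq 2.17, cutadapt 1.4.2, HISAT2, featureCounts 1.4.4 and edgeR were used with mouse build mm10. The strand setting and the annotation release of the counting are not given in the sources used here. The deposited count tables hold raw counts per Ensembl gene, and the 4 tables of 1 tumor each held the same values as the combined one (156068 of 156068). The authors also deposited log2 normalized counts, which served only as an alternative.

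CPM was computed from the counts with TMM effective library sizes (edgeR 4.0.16, R 4.3.3), and log2 CPM after adding 0.5 to counts and 1 to library sizes. Genes with a mean of at least 1 CPM were tested. Spread beyond counting noise was a chi-square test of the 4 counts (3 degrees of freedom), spread beyond the typical gene a goodness-of-fit test on edgeR's trended dispersion with an intercept only, both with Benjamini-Hochberg adjustment over all 14225 genes at 0.05. A tumor stood apart where its distance from the next tumor in log2 CPM, as a share of the range, exceeded Dixon's 95% limit for 4 samples. The tests were checked on simulated counts. Lengths (longest transcript), positions and overlaps came from GENCODE M21 on GRCm38, which held 74 of 75 members. Near-identical stretches (80 nt or longer, identity 97% or higher) were found with BLAST 2.17.0. Intervals and floors cover counting error only, since reads carried no molecular identifiers.

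The members and all lists were chosen with earlier results of these data known. Every member is named once. All 4 values are given for the 12 members with the highest CPM per kb, the 12 with the largest SD at a mean of at least 10 CPM, members with 1 tumor apart at that level and the inducible members, and for 2 genes of each partner list by the largest SD. Other genes were named after their values were seen. Alternatives were other normalizations (library size only, DESeq2 1.42.0 size factors), filters, dispersion, prior count and lengths, the deposited log2 table, and leaving out each tumor.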

Additional observations from a re-analysis of the deposited data

Results flagged for a closer look

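Among 64 tested members, 34 lists and the share of counts, 10 of 99 sets of 4 values had 1 tumor apart from the other 3 by Dixon's limit, which normal noise passes in about 5% of sets. Of the members these were 6 of 64 (9.38%, against 5.86% of all genes tested). Dnajc22 was low in tumor 3 with 0.740 CPM. Dnaja1 and Dnaja2 were high in tumor 3 with 190.3 and 286 CPM. Hspe1 was high in tumor 1 with 62.2 CPM, and Hspbap1 was low there with 7.48 CPM. Dnajc18 was high in tumor 2 with 32.3 CPM, although its 4 counts did not differ beyond counting noise.

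Of the lists, the mean log2 CPM of the remaining DNAJC members was low in tumor 3 with 4.37. These 13 genes, Dnajc22 among them, are those not placed here in the ER, mitochondrial or synaptic and endosomal groups. For the 3 genes Hspbp1, Hspbap1 and Hspb11 the mean log2 CPM was low in tumor 4 with 3.51, against 3.59 in each other tumor. The alveolar type 2 markers were low in tumor 1 with 10.8, and the 3 tested T cell markers were high in tumor 3 with 2.09.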

How the results depend on the processing

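Of 148 recomputed values for the main results, 132 stayed in their direction and within 1.5-fold (counts and SDs) or 1 SD (shares and differences between paired genes), and 0 reversed. The count of members beyond the typical gene was 0 to 1 when 1 tumor was left out (0 without tumor 3), and 48 members beyond counting noise became 38 (without tumor 1) to 52 (without tumor 4). Without tumor 1, 12 of the 48 members lost that call, and over all genes 8838 of 14181 were called, against 10905 of 14225 with all tumors. Members with 1 tumor apart numbered 10 with no filter on low counts, where members with 1 to 3 counts enter. When 1 tumor was left out, members highest in tumor 1 numbered 18 to 27, in tumor 2 16 to 18 and in tumor 4 17 to 20, as fewer tumors share the same genes. The SD of the mean of the UPR-inducible members was 0.15 to 0.29. Differences between paired genes depend on the length used. With no length correction and per kb of coding sequence, Hspe1 minus Hspd1 was -2.92 and -0.43, Dnaja1 minus Dnajb1 1.34 and 1.12, Hsp90b1 minus Hspa5 0.45 and 0.15, and Hsp90ab1 minus Hsp90aa1 1.36 and 1.38. Coding length replaced the protein lengths that had been planned, after seeing the data. SDs of single members were recomputed 280 times, and 257 stayed within 1.5-fold; each of the 23 others left out 1 tumor. No paired analysis was possible because the design holds 1 group. Members under 3 counts, and differences within counting noise, were not detectable at this depth.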
